A study of Mus musculus with 24 samples.

Results

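Transcripts of 10 dual-specificity phosphatases were followed in mouse bone marrow-derived macrophages under 3 kinds of stimulation and at 2 times. The genes were Dusp1, Dusp2, Dusp3, Dusp4, Dusp5, Dusp6, Dusp7, Dusp8, Dusp10 and Dusp16. They were taken as the rows whose Ensembl identifiers carry these symbols in GENCODE M21, 10 of the 43629 gene identifiers in each count file. The rule uses names and no measured value, but the set was drawn up with earlier results of these data known. All 10 were among the 12765 genes with enough reads to be tested. The cells were wild type macrophages of the C57BL/6 strain, cultured from marrow for 7 days. The medium held CSF-1 at 20 ng/mL, a cytokine on which macrophages depend. All groups, the unstimulated included, had been grown under CSF-1. The 8 groups held 3 libraries each: unstimulated cells, cells given LPS (bacterial lipopolysaccharide, which is sensed by Toll-like receptor 4), cells given LPS with 50 ng/mL IFNg (interferon gamma) and cells given 20 ng/mL IL-4, each after 1 h and after 18 h. For LPS 2 doses are named, 20 and 100 ng/mL, and the labels tie neither to single libraries. LPS alone and LPS with IFNg could therefore differ in LPS dose. Where these groups are compared, such a difference cannot be told apart from an effect of IFNg. Polyadenylated RNA was sequenced with a stranded kit. Whether the replicates were separate mice, separate cultures or repeat preparations is not given, so p-values here reflect library-to-library spread that could be technical.

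MAP kinases (ERK, p38 and JNK) are switched on by phosphorylation of a threonine and a tyrosine in their activation loop, and dual-specificity phosphatases switch them off by removing both phosphates. Members differ in where they sit in the cell and which kinases they prefer, and several are themselves induced by MAP kinase signalling, which makes them negative feedback regulators. In macrophages Dusp1 is best known for limiting p38 and JNK signalling, and with it cytokine output, after Toll-like receptor stimulation.

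The members were described by class. The inducible nuclear enzymes were Dusp1 (ENSMUSG00000024190, chr17:26505590-26562128), which prefers p38 and JNK, Dusp2 (ENSMUSG00000027368, chr2:127336159-127338376), Dusp4 (ENSMUSG00000031530, chr8:34807297-34819894) and Dusp5 (ENSMUSG00000034765, chr19:53529109-53542431), which is selective for ERK. The cytoplasmic ERK phosphatases were Dusp6 (ENSMUSG00000019960, chr10:99263231-99267489) and Dusp7 (ENSMUSG00000053716, chr9:106368632-106375724). The phosphatases that prefer p38 and JNK were Dusp8 (ENSMUSG00000037887, chr7:142079490-142095843), Dusp10 (ENSMUSG00000039384, chr1:184013302-184075636) and Dusp16 (ENSMUSG00000030203, chr6:134715468-134792625). Dusp3 (ENSMUSG00000003518, chr11:101971143-101987013) is a small enzyme that lacks the kinase-binding domain of the others. Positions are those of the whole gene in GENCODE M21 on GRCm38.

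Libraries held 4181890 to 8122945 counts. All 9 macrophage markers had reads in every group, with a summed level of 10530 to 26090 CPM (counts scaled to the TMM-adjusted size of the library). The T cell marker Cd3e was at 0 in all libraries, and the summed T cell, dendritic, fibroblast, B cell and mast cell lists stayed at or below 16.7 CPM. The summed neutrophil list was not as low, at 31.5 to 263 CPM. All 8 of its genes had reads in every group but LPS with IFNg at 18 h. Known targets of the stimuli were checked: Tnf averaged 34.6 CPM without stimulus and 4922 CPM after 1 h of LPS, Cxcl9 was 0.22 CPM with LPS and 1280 CPM with LPS and IFNg at 1 h, and Arg1 was 0.46 CPM without stimulus and 618 CPM with IL-4 at 18 h. Replicate 2 of LPS 18 h stood apart from its group: its chi-square distances per gene were 9.25 and 11.4, where replicates 1 and 3 were 2.42 apart. Replicate 2 of IL-4 18 h (7.41 and 4.56, against 3.26) stood apart less, and replicate 3 of unstimulated 18 h had reads for 19108 genes where the other libraries had 15450 to 17808. No 2 libraries of a group were alike within sampling noise (lowest chi-square per gene 1.62).

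Per unit of exon length, the most abundant member without stimulus by group mean was Dusp3. At 1 h without stimulus Dusp3 stood at 48.2 ± 1.83 CPM per kb (SD, n = 3), followed by Dusp1 at 43.4 ± 3.47 and Dusp4 at 39.0 ± 2.76, and the scarcest member was Dusp8 at 0.68 ± 0.26. Dusp1 took first place in all 4 groups given LPS, with 404 ± 21.9 CPM per kb at 1 h of LPS alone. By group mean Dusp4 took it in both IL-4 groups, with 113 ± 7.32 at 1 h. At 18 h of IL-4 its lead over Dusp3 was within its SD (49.9 ± 5.74 and 45.9 ± 1.09). The summed level of the 10 genes was 209 ± 12.4 CPM per kb without stimulus and 859 ± 45.5 with LPS at 1 h, 503 ± 32.8 with LPS and IFNg, and 224 ± 10.4 with IL-4. At 18 h the sums lay between 138 ± 2.93 without stimulus and 193 ± 7.34 with LPS. The near-equal sums without stimulus and with IL-4 at 1 h had a different make-up, since Dusp4 was 18.6% of the first and 50.4% of the other, and Dusp1 20.7% and 8.48%. The plot of summed levels shows this make-up for each group.

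**Figure D1:**
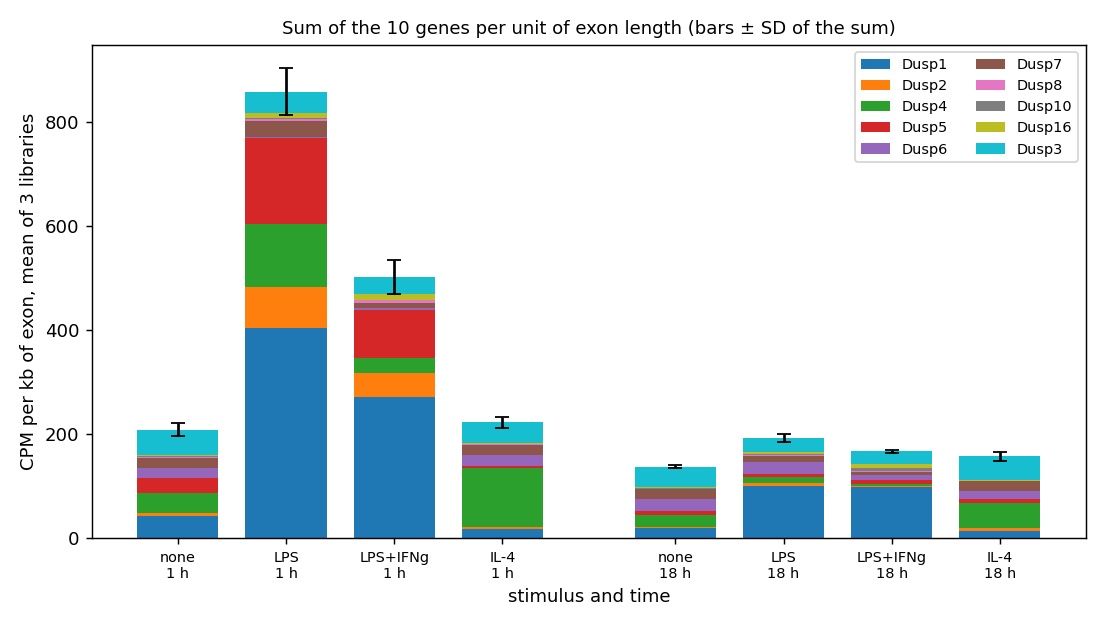
Summed level of the 10 genes in CPM per kb of exon (vertical axis) for each stimulus and time (horizontal axis); coloured segments are group means of single genes and black bars the SD of the sum over 3 libraries. LPS at 1 h has the tallest column (859), LPS with IFNg at 1 h the next (503), and the IL-4 column at 1 h is about as tall as the unstimulated one (224 and 209) with a larger Dusp4 segment.

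LPS for 1 h raised 7 of the 10 members and lowered 2. Among all tested genes 10.8% were called higher and 11.5% lower in that comparison (edgeR quasi-likelihood test, adjusted p below 0.05 after Benjamini-Hochberg over all tested genes), and the median log2 fold change was 1.61 over the members and -0.002 over all tested genes. All 4 inducible nuclear enzymes rose, together with Dusp7, Dusp8 and Dusp16. Dusp6 and Dusp3 fell, and Dusp10 was not called. The 3 comparisons of a stimulus with unstimulated cells at 1 h share their control libraries, and so do those at 18 h.

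Dusp1 had the highest level of the inducible enzymes. It stood at 155, 132 and 143 CPM in the unstimulated libraries and at 1374, 1255 and 1386 CPM after 1 h of LPS. The groups were far apart, and the fitted change was 9.32-fold (log2 3.22 ± 0.08 SE, adjusted p = 3.2e-23). Dusp2, a nuclear enzyme known as an early gene of activated lymphocytes, went from 10.9, 10.4 and 10.5 CPM to 167, 154 and 156 CPM. This was the largest fold change of the family (log2 3.90 ± 0.12, adjusted p = 1.7e-21), with no overlap between groups. Dusp5 stood at 66.4, 56.1 and 82.7 CPM without stimulus and 401, 372 and 446 CPM with LPS, a 5.97-fold rise (log2 2.58 ± 0.12, adjusted p = 9e-17). Its unstimulated libraries were more uneven than those of Dusp2, but the lowest LPS library was still well above the highest of them. Dusp4 rose 3.12-fold, from 107, 99.0 and 114 CPM to 323, 324 and 350 CPM (log2 1.64 ± 0.09, adjusted p = 6.7e-15).

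The 2 cytoplasmic ERK phosphatases moved in opposite directions. Dusp6, a feedback gene that follows ERK activity in many cell types, fell from 56.2, 63.2 and 65.6 CPM to 12.8, 11.9 and 9.24 CPM. Every LPS library lay under every unstimulated one, and the change was 5.39-fold lower (log2 -2.43 ± 0.12, adjusted p = 2e-16). Dusp7 was 66.4, 65.4 and 72.9 CPM without stimulus and 91.5, 82.1 and 119 CPM with LPS. The rise of Dusp7 was 1.43-fold (log2 0.51 ± 0.11, adjusted p = 0.00039) and the groups did not overlap, although the LPS libraries were uneven (SD 19.0 CPM).

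Among the phosphatases of p38 and JNK, Dusp8 and Dusp16 rose while Dusp10 was not called. Dusp8 was scarce, at 4.28, 3.82 and 1.88 CPM without stimulus (10 to 31 reads a library) and 20.7, 22.7 and 22.0 CPM with LPS, a 6.30-fold rise (log2 2.65 ± 0.19, adjusted p = 9.5e-13). Dusp16, which acts on JNK and p38, went from 23.7, 21.7 and 21.2 CPM to 65.6, 67.5 and 67.7 CPM, a rise (log2 1.59 ± 0.10, adjusted p = 3e-14). Dusp10 averaged 6.62 ± 0.65 CPM without stimulus and 6.90 ± 0.37 with LPS, a log2 change of 0.06 with a 95% interval of -0.31 to 0.43 (adjusted p = 0.89). Dusp3 was slightly lower with LPS, at 188, 199 and 198 CPM against 218, 225 and 235 (log2 -0.21 ± 0.06, adjusted p = 0.011). That call of Dusp3 was lost without LPS 1 h replicate 1 (adjusted p = 0.051), without unstimulated 1 h replicate 3 (0.058) and with no filter on low counts (0.06).

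**Figure D2:**
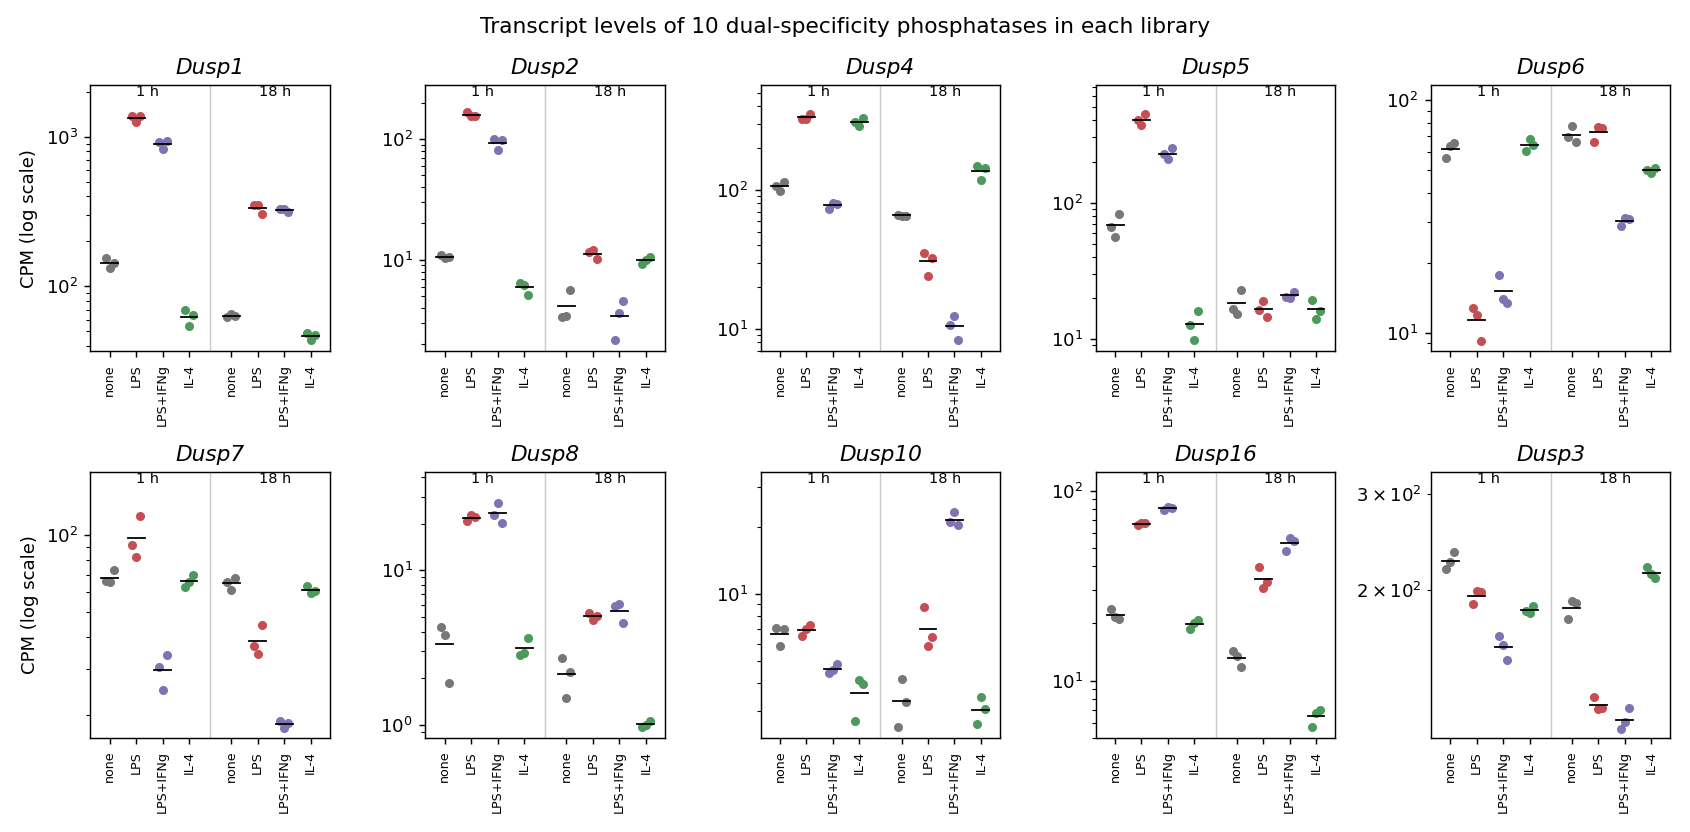
Level of each gene in CPM on a log axis (vertical) in every library, by stimulus at 1 h and 18 h (horizontal); points are libraries and black lines group means. At 1 h of LPS the points of Dusp1, Dusp2, Dusp4, Dusp5, Dusp7, Dusp8 and Dusp16 lie above and those of Dusp6 below the unstimulated ones, and Dusp10 is highest with LPS and IFNg at 18 h (20.2 to 23.3 CPM).

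RefSeq promoter sequences (GRCm38.p6, the 250 bases before the RefSeq gene start) were found for 9 of the 10 members, and Dusp4 was the exception. The RefSeq starts of Dusp1 (chr17:26508472) and Dusp10 (chr1:184034381) lie far inside the GENCODE spans given above. Those of Dusp3, Dusp5 and Dusp8 lie less far inside. The Dusp1 window holds 47 bases of an exon of Dusp1, and the Dusp10 window 171 exon bases of 1700056E22Rik. They were searched on both strands for letters known to bind transcription factors, among them targets of MAP kinases, STAT proteins and the TATA-binding protein. The cAMP response element TGACGTCA, bound by CREB and ATF proteins, was in the promoters of Dusp1 and Dusp8, and in 1.55% of the 32851 promoters of that length. Its core TGACG, which is part of the full element, was in those of Dusp1, Dusp5, Dusp8 and Dusp16, and in 17.8% of all. The CArG box, which serum response factor binds, occurred in Dusp5, where 2 adjoin each other, and in 1.47% of all promoters. None of the 9 held AP-1 (TGANTCA, 6.75% of all), the NF-kappaB consensus (7.25%), EGR (GCGTGGGNG, 1.65%), the STAT palindrome (TTCNNNGAA, 7.02%), the STAT6 palindrome (5.85%) or the TATA box (TATAAA, 12.4%). A match describes letters and not a bound site, and a window without a match says nothing of the factor. The windows of the 9 members were 56.4 to 77.2% GC, where the median of all promoters was 52.4%. The shares of all promoters are thus not matched to the members in base content. The stretches with matches are printed for the 4 genes that had any. All 4 rose with LPS at 1 h, but Dusp2, which rose most, and Dusp7 rose too and had no match. They run 5′ to 3′ on the strand of the gene, with matches in capitals (CGTCA is TGACG on the other strand). Dusp1 is read from chr17:26508588-26508683 (minus strand), Dusp5 from chr19:53529043-53529108 (plus strand), Dusp8 from chr7:142095320-142095411 (minus strand) and Dusp16 from chr6:134792674-134792718 (minus strand). The Dusp5 stretch also lies in an exon of the antisense RNA gene AC137853.2.
Dusp1: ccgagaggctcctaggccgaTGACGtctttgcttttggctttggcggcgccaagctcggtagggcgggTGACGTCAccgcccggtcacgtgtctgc
Dusp5: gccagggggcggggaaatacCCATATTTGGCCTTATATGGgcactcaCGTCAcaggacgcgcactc
Dusp8: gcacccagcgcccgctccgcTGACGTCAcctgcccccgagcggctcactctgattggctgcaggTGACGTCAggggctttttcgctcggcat
Dusp16: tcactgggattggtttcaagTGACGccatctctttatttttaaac

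With IFNg in addition to LPS, 5 members were above unstimulated cells at 1 h and 4 below, where 14.7% of all tested genes were called higher and 14.7% lower. Dusp1 (6.26-fold), Dusp2 (8.78-fold), Dusp5 (3.36-fold), Dusp8 (6.78-fold) and Dusp16 (3.62-fold) rose. Dusp6 fell by 2.03 on the log2 scale, Dusp7 by 1.19, Dusp3 by 0.52 and Dusp4 by 0.45. Dusp10 was not called (log2 -0.51 ± 0.20, adjusted p = 0.051), and it was called without unstimulated 1 h replicate 2 (0.044), in a fit of the compared groups alone (-0.53, 0.048) and under library-size scaling (-0.78, 0.0018).

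Set directly against LPS at 1 h, LPS with IFNg had 6 members lower and 1 higher, where 5.25% of all tested genes were called lower and 6.51% higher. The largest differences were in Dusp4 and Dusp7. Dusp4 stood at 323, 324 and 350 CPM with LPS and at 73.4, 80.6 and 79.9 CPM with LPS and IFNg, 4.26-fold lower (log2 -2.09 ± 0.10, adjusted p = 1.1e-16). All 3 of the latter libraries also lay below the unstimulated ones (99.0 to 114 CPM), so Dusp4 was called higher with LPS and lower with the combination, each against unstimulated cells. Dusp7 likewise went from 91.5, 82.1 and 119 CPM with LPS to 30.5, 24.9 and 34.1 CPM (log2 -1.70 ± 0.12, adjusted p = 1.1e-12), under its unstimulated level of 65.4 to 72.9 CPM.

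The other inducible enzymes were lower with the combination but stayed above unstimulated cells. Dusp1 was 931, 824 and 943 CPM with LPS and IFNg, 1.49-fold below LPS alone (log2 -0.57 ± 0.08, adjusted p = 9.9e-07). Dusp2 was 101, 80.8 and 98.6 CPM (log2 -0.77 ± 0.10, adjusted p = 2.6e-07), and Dusp5 was 225, 208 and 253 CPM (log2 -0.83 ± 0.11, adjusted p = 1.7e-06). None of these 3 genes overlapped between LPS and the combination, and how many of all tested genes lack such overlap was not counted. Dusp3 was 1.24-fold lower (adjusted p = 0.00044). The 1 higher member was Dusp16, at 79.5, 81.6 and 81.2 CPM against 65.6, 67.5 and 67.7 CPM (log2 0.27 ± 0.09, adjusted p = 0.034). The Dusp16 call was lost when any 1 of the 6 libraries was left out (adjusted p = 0.072 to 0.098) and with DESeq2 (0.11), median-of-ratios scaling (0.052), library-size scaling (0.18) or no filter (0.093). Dusp6, Dusp8 and Dusp10 were not called (log2 0.40 ± 0.15, 0.11 ± 0.14 and -0.57 ± 0.21).

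**Figure D3:**
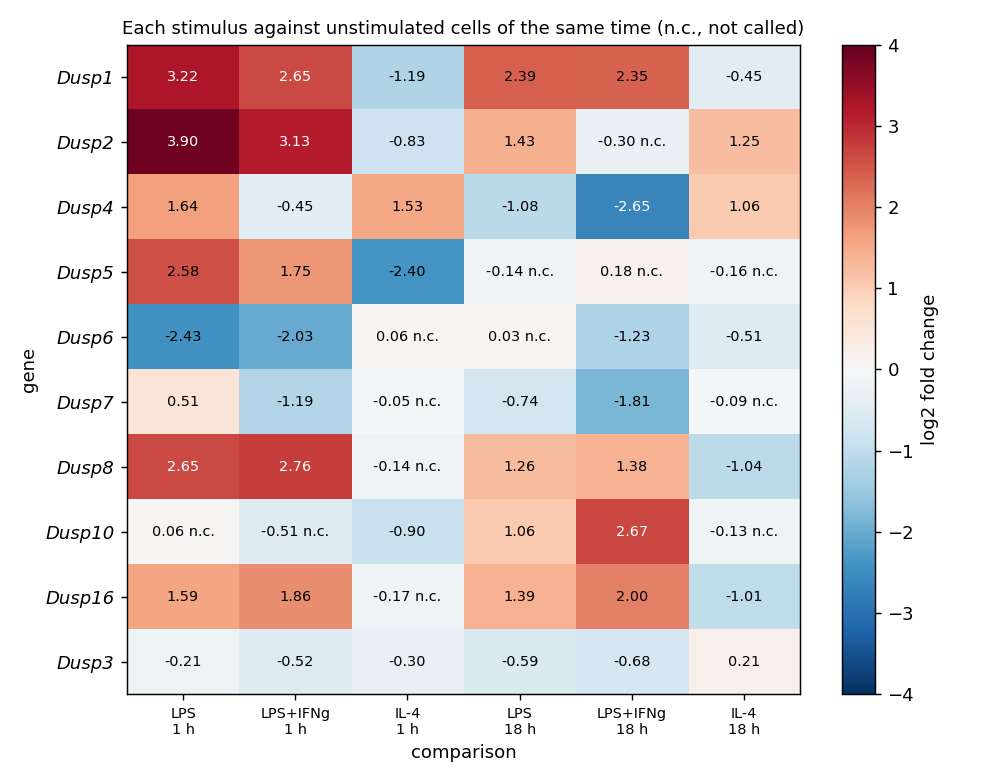
Log2 fold change (colour and printed value) of each gene (rows) for each stimulus against unstimulated cells of the same time (columns); n.c. marks values that were not called. Dusp1, Dusp8 and Dusp16 are higher in all 4 columns with LPS, while Dusp4 is higher with LPS (1.64) and IL-4 (1.53) at 1 h and lower with LPS and IFNg (-0.45).

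IL-4 for 1 h raised 1 member and lowered 5, in a comparison where 3.22% of all tested genes were called higher and 3.27% lower. Dusp4 was the member that rose. It stood at 308, 289 and 329 CPM with IL-4 against 107, 99.0 and 114 CPM without, 2.90-fold higher (log2 1.53 ± 0.09, adjusted p = 1.9e-13). Its IL-4 libraries overlapped the range of LPS at 1 h (323 to 350 CPM).

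Dusp5 had the largest fall with IL-4, from 66.4, 56.1 and 82.7 CPM to 12.7, 9.82 and 15.9 CPM, 5.29-fold lower (log2 -2.40 ± 0.16, adjusted p = 1.1e-12). Those were the lowest levels of Dusp5 by group mean, although they overlapped those of IL-4, LPS alone and no stimulus at 18 h. Dusp1 fell from 155, 132 and 143 CPM to 69.6, 54.6 and 64.1 CPM (log2 -1.19 ± 0.09, adjusted p = 1e-11). Dusp2 fell to 6.41, 6.20 and 5.14 CPM (log2 -0.83 ± 0.18, adjusted p = 0.0015). Dusp1, Dusp2 and Dusp5 thus each rose with LPS and fell with IL-4 at 1 h, without overlap with the unstimulated libraries. In how many of all tested genes that holds was not counted.

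Dusp10 was lower with IL-4 at 1 h, 2.71, 4.13 and 3.98 CPM against 7.04, 5.87 and 6.94 (log2 -0.90 ± 0.20, adjusted p = 0.0027), on 22 to 24 reads a library. Without IL-4 1 h replicate 1 that value was -0.70 and was not called (adjusted p = 0.062). Dusp3 was 1.23-fold lower (adjusted p = 0.00088). Dusp6 (log2 0.06, 95% interval -0.12 to 0.23), Dusp7 (-0.05, -0.25 to 0.16), Dusp8 (-0.14, -0.64 to 0.35) and Dusp16 (-0.17, -0.38 to 0.04) were not called.

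Levels in unstimulated cells, to which the 18 h comparisons refer, differed between the times. Between 1 h and 18 h without stimulus 7 members fell and the other 3 were not called, where 8.01% of all tested genes were called lower and 4.00% higher. Dusp5 fell from 66.4, 56.1 and 82.7 CPM to 16.6, 15.3 and 23.0 CPM (log2 -1.89 ± 0.15, adjusted p = 5.2e-10). Dusp2 (log2 -1.35), Dusp1 (-1.17), Dusp10 (-0.97), Dusp16 (-0.76), Dusp4 (-0.70) and Dusp3 (-0.28) fell too. Dusp6 and Dusp7, the cytoplasmic ERK phosphatases, were not called (0.21 and -0.07). Dusp8 was not called either (-0.70), and without unstimulated 1 h replicate 3 it was called (-0.94, adjusted p = 0.026). In bulk libraries fewer cells of a type and less RNA per cell cannot be told apart.

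After 18 h of LPS, 5 members were above and 3 below unstimulated cells of that time, in a comparison where 31.8% of all tested genes were called higher and 31.4% lower. Dusp1 remained the highest, at 350.0, 348 and 303 CPM against 62.9, 64.9 and 63.2 CPM (log2 2.39 ± 0.09, adjusted p = 3.3e-20). Dusp2 was 11.5, 12.1 and 10.2 CPM against 3.38, 3.43 and 5.64 CPM (log2 1.43 ± 0.20, adjusted p = 2.3e-07), a level that overlapped unstimulated cells of 1 h. Dusp16 (log2 1.39 ± 0.11), Dusp8 (1.26 ± 0.27) and Dusp10 (1.06 ± 0.21) were also higher. The 3 lower members were Dusp4 (-1.08 ± 0.11), Dusp7 (-0.74 ± 0.11) and Dusp3 (-0.59 ± 0.06).

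Dusp6 and Dusp5 were not called at 18 h of LPS. Dusp6, which was 5.39-fold lower at 1 h, was 66.2, 76.2 and 75.5 CPM with LPS and 69.2, 77.3 and 66.2 CPM without at 18 h, with overlap (log2 0.03, 95% interval -0.14 to 0.21). Dusp5 was 16.3, 18.9 and 14.5 CPM against 16.6, 15.3 and 23.0 CPM (log2 -0.14, -0.51 to 0.22). When libraries were scaled by their total count alone, the median of all genes moved to -0.41, and Dusp6 (-0.39) and Dusp5 (-0.56) were called lower. Leaving out LPS 18 h replicate 2 ended none of the 8 calls, with Dusp4 at -0.94 and Dusp16 at 1.47. The summed fibroblast and stromal markers were 4.08 to 7.18 CPM in the LPS 18 h libraries (5 of 5 with reads), 1.52 to 2.84 CPM with LPS and IFNg at 18 h (5 of 5) and at most 0.78 CPM elsewhere, and their part in these results was not tested.

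LPS with IFNg for 18 h gave 4 members higher and 4 lower, where 36.1% of all tested genes were called higher and 36.1% lower, so these shares are near the background. Dusp10 changed most among the higher ones. It stood at 20.9, 23.3 and 20.2 CPM against 2.54, 4.17 and 3.29 CPM, 6.36-fold higher (log2 2.67 ± 0.17, adjusted p = 1.7e-14). The other groups had Dusp10 at 2.54 to 8.70 CPM, below each of these 3 libraries. Dusp1 (log2 2.35 ± 0.09), Dusp16 (2.00 ± 0.10) and Dusp8 (1.38 ± 0.26) rose as well. Dusp4 fell to 10.7, 12.3 and 8.32 CPM from 66.6, 64.8 and 65.4 CPM, 6.26-fold lower (log2 -2.65 ± 0.13, adjusted p = 5.4e-17). Dusp7 (-1.81 ± 0.13), Dusp6 (-1.23 ± 0.10) and Dusp3 (-0.68 ± 0.06) fell too. Dusp2 (-0.30 ± 0.25) and Dusp5 (0.18 ± 0.18) were not called, and under library-size scaling, where all tested genes had a median of -0.54, Dusp2 was called lower (-0.84, adjusted p = 0.0029).

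Against LPS alone at 18 h, the combination had 2 members higher and 4 lower, where 24% of all tested genes were called higher and 23.4% lower. Dusp10 was 8.70, 5.83 and 6.42 CPM with LPS, so it was 3.04-fold higher with IFNg (log2 1.61 ± 0.15, adjusted p = 5.8e-10). Dusp16 was 1.53-fold higher, at 48.2, 56.3 and 54.1 CPM against 39.4, 30.6 and 33.2 CPM (adjusted p = 2.9e-06). Dusp2 fell from 11.5, 12.1 and 10.2 CPM to 2.17, 3.60 and 4.54 CPM (log2 -1.74 ± 0.21, adjusted p = 5.1e-08). Dusp4 (-1.56 ± 0.15), Dusp6 (-1.26 ± 0.10) and Dusp7 (-1.07 ± 0.13) were lower. Dusp6 stood at 28.7, 31.3 and 30.8 CPM, under the 66.2 to 76.2 CPM of LPS alone. Dusp1, the most abundant member in both groups, was not called (log2 -0.03, 95% interval -0.19 to 0.12). Without LPS 18 h replicate 2 the 6 calls held, with Dusp10 at 1.497 and Dusp4 at -1.705. In the libraries with LPS and IFNg at 18 h the summed neutrophil markers were 31.5 to 54.8 CPM (6 of 8 with reads, Mpo and Elane at 0), against 123 to 263 CPM elsewhere (8 of 8), and the summed dendritic cell markers were 12.3 to 16.7 CPM (5 of 5) against 1.66 to 8.54 CPM. The part of these cells in the results of that group was not tested.

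**Figure D4:**
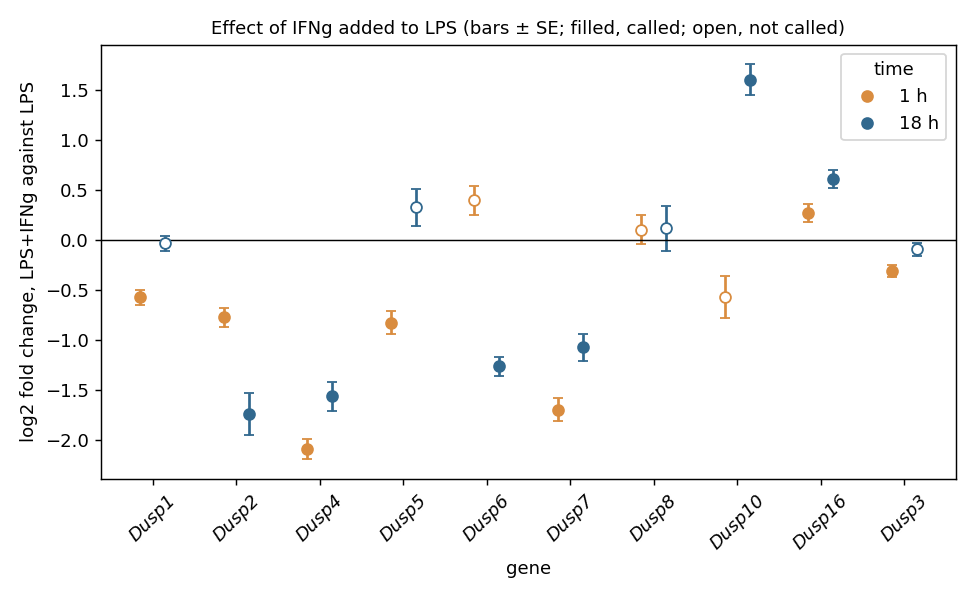
Log2 fold change of LPS with IFNg against LPS alone (vertical axis) for each gene (horizontal axis) at 1 h (orange) and 18 h (blue); bars are ± SE, filled points were called and open points were not. Dusp4 and Dusp7 are lower at both times, Dusp1 and Dusp5 were called lower at 1 h and not called at 18 h, and Dusp10 is higher at 18 h (1.61).

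IL-4 for 18 h gave 3 members higher and 4 lower, in a comparison where 19.0% of all tested genes were called higher and 20.1% lower. Dusp4 was again higher, at 148, 119 and 143 CPM against 66.6, 64.8 and 65.4 CPM (log2 1.06 ± 0.10, adjusted p = 5.2e-10). Dusp2, which IL-4 lowered at 1 h, was higher at 18 h, 9.30, 9.90 and 10.5 CPM against 3.38, 3.43 and 5.64 CPM (log2 1.25 ± 0.19, adjusted p = 4.3e-06). These libraries overlapped the 10.4 to 10.9 CPM of unstimulated cells at 1 h. Dusp3 was 1.16-fold higher (adjusted p = 0.0056), a call lost under library-size scaling (0.051).

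Dusp16 fell with IL-4 at 18 h, to 5.69, 6.79 and 7.01 CPM from 14.4, 13.4 and 11.7 CPM (log2 -1.01 ± 0.14, adjusted p = 6.3e-07). These were the lowest libraries of Dusp16. Dusp8 was 0.97, 1.00 and 1.07 CPM (7 to 9 reads a library) against 2.71, 1.49 and 2.19 CPM (log2 -1.04 ± 0.35, adjusted p = 0.018). Its call was lost without unstimulated 18 h replicate 1 (-0.85, adjusted p = 0.10) or IL-4 18 h replicate 2 (-1.03, 0.056). Dusp6 (-0.51 ± 0.09) and Dusp1 (-0.45 ± 0.09) fell less. Dusp5, Dusp7 and Dusp10 were not called (-0.16, -0.09 and -0.13). Without IL-4 18 h replicate 2, Dusp4 was 1.15 and Dusp16 -1.05.

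Over the 8 groups the members differed widely in how far they moved. The ratio of the highest to the lowest group mean was 46.4 for Dusp2, 31.9 for Dusp4, 31.7 for Dusp5, 28.7 for Dusp1, 23.2 for Dusp8, 12.4 for Dusp16, 7.06 for Dusp10, 6.42 for Dusp6 and 5.29 for Dusp7, and for Dusp3 it was 1.95. In Dusp16 no neighbouring groups overlapped. From the top they were LPS with IFNg at 1 h (80.8 ± 1.08 CPM), LPS at 1 h, the combination at 18 h and LPS at 18 h. Unstimulated 1 h, IL-4 at 1 h, unstimulated 18 h and IL-4 at 18 h (6.50 ± 0.71 CPM) followed. Lack of overlap among 3 libraries is not a call: IL-4 at 1 h was not called against unstimulated cells (log2 -0.17 ± 0.11). The Dusp16 call for IFNg added at 1 h was not firm, as given above. How many of all tested genes lack such overlap was not counted. Dusp4 had 1 overlapping pair of neighbours, LPS and IL-4 at 1 h. Dusp1 had 2, LPS with and without IFNg at 18 h, and unstimulated 18 h with IL-4 at 1 h. In Dusp5 all 5 of the groups from LPS with IFNg at 18 h downward overlapped their neighbours, between 9.82 and 23.0 CPM. The other members had 3 or 4 overlapping pairs, and in Dusp10 the group of LPS with IFNg at 18 h was clear of the next.

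Whether a response differed between 18 h and 1 h was tested as an interaction. For LPS 7 members had a lower and 2 a higher value at 18 h than at 1 h, where 27.2% of all tested genes were called lower and 27.0% higher. The largest differences were those of Dusp4 and Dusp5 (both log2 -2.72), Dusp2 (-2.47) and, in the other direction, Dusp6 (2.46). Dusp16 was not called (-0.19 ± 0.15, with responses of 1.59 and 1.39), and it was called under library-size scaling (-0.42, adjusted p = 0.021). For LPS with IFNg 6 members were lower and 2 higher (32.2% and 31.8% of all tested genes), led by Dusp2 (-3.44) and Dusp10 (3.18). The call of Dusp1 there (-0.29, adjusted p = 0.029) was lost when any of 5 libraries was left out: unstimulated 1 h replicate 2, unstimulated 18 h replicate 2, the combination at 1 h replicates 1 and 3, and the combination at 18 h replicate 3 (0.058 to 0.088). For IL-4 4 were higher and 3 lower (10.1% and 11.4%), led by Dusp5 (2.24) and Dusp2 (2.08). Dusp10 was not called there (0.77, adjusted p = 0.073), and was called without unstimulated 18 h replicate 2 (0.97, 0.038). These 3 contrasts also hold the change of the unstimulated libraries with time.

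The added effect of IFNg does not involve unstimulated cells, but any difference in LPS dose between the groups would be part of it. This effect differed between the times for 8 members, 6 with a higher and 2 with a lower value at 18 h (16.5% and 18.5% of all tested genes). Dusp10 (2.18 ± 0.26), Dusp5 (1.16 ± 0.22), Dusp7 (0.62 ± 0.18), Dusp1 (0.54 ± 0.11), Dusp4 (0.53 ± 0.18) and Dusp16 (0.34 ± 0.13) were higher. Dusp6 (-1.66 ± 0.18) and Dusp2 (-0.97 ± 0.24) were lower. The Dusp4 call was lost without LPS 18 h replicate 2 (0.39, adjusted p = 0.08), without the combination at 1 h replicate 1 (0.49, 0.052) and without the combination at 18 h replicate 1 (0.51, 0.067) or 2 (0.41, 0.13). That of Dusp16 (adjusted p = 0.037) was lost without each of 10 libraries: all but replicate 1 of LPS 18 h and replicate 1 of the combination at 18 h among the 12 libraries compared (0.053 to 0.11). It was also lost with library-size scaling (0.083), no filter (0.17), DESeq2 (0.063) and a fit of the compared groups alone (0.05). Dusp3, not called (0.22, 0.057), was called without LPS 18 h replicate 1, without the combination at 1 h replicate 1 or without the combination at 18 h replicate 1 (0.045 to 0.049). Dusp3 was called as well with median-of-ratios scaling (0.24, 0.039) and DESeq2 (0.23, 0.038).

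The genes around the phosphatases were counted from lists of their pathway, and are to be read against the shares of all tested genes called higher and lower (10.8% and 11.5% for LPS at 1 h, 3.22% and 3.27% for IL-4 at 1 h, 6.51% and 5.25% for added IFNg at 1 h). The counts that follow are for 1 h unless another time is given. Of 9 MAP kinase genes tested LPS raised 1, Mapk6, an atypical kinase of the ERK family (175 ± 4.99 to 441 ± 12.4 CPM). LPS lowered 1, Mapk7 (ERK5 gene), so its counts in this list were near the background. IL-4 lowered these same 2 genes (-0.33 and -0.31). Of 7 MAP kinase kinases 2 were called with LPS at 1 h, both higher: Map2k3 (log2 0.67), which activates p38, and Map2k1 (0.17), which activates ERK. With IL-4 1 was called, Map2k3, lower (-0.34). In the tier above, with 21 tested, LPS raised 3 and lowered 4, and IL-4 raised 2 and lowered 2. Map3k8, the kinase that couples Toll-like receptors to ERK, rose from 9.16 ± 1.24 CPM to 29.5 ± 3.14 with LPS, 19.3 ± 1.98 with IL-4 and 126 ± 1.72 with LPS and IFNg, and adding IFNg to LPS raised 4 and lowered 2 of that tier. Of 10 kinases activated by MAP kinases LPS raised 2, Mapkapk2 (log2 1.56), a main effector of p38, and Mapkapk3 (0.78), and lowered 1, and IL-4 raised Mapkapk3 (0.72). In 4 tested phosphatases of other families LPS and IL-4 each lowered Ptpn7, a tyrosine phosphatase of ERK and p38 (-0.79 and -0.38), and LPS raised Ppm1a (0.28). Of 13 genes from the CSF-1 receptor to RAS, LPS raised 3, led by Csf1 (3.93), and lowered 2, and IL-4 lowered 1.

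Transcripts known to follow ERK activity, 14 tested, moved more than these. LPS at 1 h raised 11 and lowered 2 (list median 1.29), and IL-4 raised 3 and lowered 8 (median -0.53). Fos, an immediate early gene, was 109 ± 10.5 CPM without stimulus and 30.9 ± 6.38 with IL-4 (log2 -1.82 ± 0.11), while Egr2, also a known target of IL-4 signalling, rose from 56.4 ± 4.40 to 278 ± 32.7 CPM (2.30 ± 0.11). Between 1 h and 18 h without stimulus 10 of the list fell and 2 rose (median -0.997), where 8.01% of all tested genes were called lower and 4.00% higher. Fosb went from 22.7 ± 3.45 to 3.42 ± 0.30 CPM, and those that rose were Ccnd1, a cyclin (0.49), and Etv5 (0.32). Etv5, which like Dusp6 is a known target of ERK signalling in many cells, fell with LPS at 1 h (-0.43). At 18 h Etv5 was lower with LPS and IFNg than with LPS alone (-1.38). The list did not share that fall, with 4 higher and 4 lower in the same comparison (median 0.548). The shares of all tested genes called in it are given above. Among 6 Sprouty, SPRED and related inhibitors of RAS-ERK signalling 4 were called with LPS at 1 h, all higher, and IL-4 raised 2, Errfi1 (1.15) and Spred1 (0.54), and lowered 2, Spry2 (-1.56) and Spred2 (-0.61). At 18 h LPS with IFNg lowered Spry2 from 13.4 ± 0.39 to 5.43 ± 0.29 CPM and raised Map2k1 from 178 ± 6.28 to 404 ± 18.4 CPM.

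The genes whose pattern was most like that of a member were found by Pearson's r of log2 CPM over the 8 group means, among the 9647 genes that averaged 5 CPM or more. With 8 points and so many genes high values are plentiful, and they are given as a description with no test. Dusp2 and Dusp5 had the same closest gene, Ier2 (0.971 for each), an immediate early gene, and Dusp5 was also close to Mapk6 (0.97). Itga5 was closest to Dusp1 (0.993), Abi1 to Dusp8 (0.994), Fbxw11 to Dusp16 (0.988) and Srxn1 to Dusp10 (0.983). For Dusp4 the closest was Aph1b (0.966), for Dusp6 Zfp90 (0.985), for Dusp7 Ncdn (0.966) and for Dusp3 Bend3 (0.987). Behind Abi1, Dusp8 had Mpp5 and then Nlrp3 (0.985 for each). Behind Fbxw11, Dusp16 had Mbd5 (0.984) and then Rela (0.981), a subunit of NF-kappaB. No other member was among the 3 closest genes of any member.

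Several members overlap a gene on the other strand, and whether counting used the strand is not given in the sources used here. Dusp3 shares 604 exonic bases with the antisense gene Gm20659, whose group means were 13.6 to 31.6 CPM and were lowest with LPS and IFNg at 18 h, as for Dusp3, so reads of the 2 may not be fully told apart. Dusp1 shares 11 with Ergic1, which had group means of 134 to 216 CPM and did not follow the rise of Dusp1 at 1 h (166 CPM both with and without LPS). Dusp5 shares 547 with AC137853.2 and Dusp8 66 with Gm32786, neither of which was analysed here. Dusp10 and Dusp16 lie opposite 1700056E22Rik and Gm36328 with no shared exonic base, and Dusp2, Dusp4, Dusp6 and Dusp7 overlap no gene on the other strand.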

How the data were processed

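The deposited files hold raw counts of reads per Ensembl gene identifier, 1 file for each of the 24 libraries, with no header and no normalization by the authors. STAR, featureCounts, DESeq2, deepTools and the build GRCm38 are named, without versions, per the submitters' processing notes. The annotation release, strand setting and treatment of reads with several alignments are not given in the sources used here. Identifiers were matched to GENCODE M21 (42462 of 43629).

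Groups came from the labels. The edgeR filter filterByExpr, run by group with minimum count 10, kept 12765 genes and set 30864 aside. TMM scaling and the model fit used edgeR 4.0.16 in R 4.3.3, with all 8 groups in 1 model and a term for each group (common biological coefficient of variation 0.0736). There were 9 comparisons of groups and 4 interaction contrasts by the quasi-likelihood test, two-sided, with Benjamini-Hochberg adjustment over all tested genes, and calls were made at adjusted p below 0.05. The SE was taken from the fold change and its F statistic. The fit was tested on simulated data. Levels are CPM of the TMM-scaled library, divided by the merged exon length where genes are compared.

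The members and gene lists (9 of the pathway, 7 of cell type markers) were chosen with earlier results of these data known. All members are named. From a pathway list up to 3 called genes per direction and comparison with the largest change and a mean of at least 1 CPM could be named, with the 3 closest genes in pattern for each member and the marker and stimulus check genes. Dusp1, Dusp2 and Dusp6 had been named in those earlier results for LPS.

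Alternatives were median-of-ratios and library-size scaling, no filter, DESeq2 1.42.0, a fit restricted to the groups compared, a replicate block, and leaving out each library in turn. Replicate numbers are in the labels without a stated meaning. Deviations from group means of same-numbered libraries correlated above 0.1 in all 3 pairs only for IL-4 against unstimulated cells at 1 h (0.13, 0.23 and 0.16).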

Additional observations from a re-analysis of the deposited data

Results flagged for a closer look

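The responses listed here differed between the 2 times by the test of the difference itself (the interaction contrast, adjusted p below 0.05), and were set apart for that reason. Values are the log2 response at 18 h minus that at 1 h. For LPS they were -2.72 for Dusp4, -2.72 for Dusp5, -2.47 for Dusp2, -1.39 for Dusp8, -1.25 for Dusp7, -0.83 for Dusp1, -0.38 for Dusp3, 1.00 for Dusp10 and 2.46 for Dusp6. For LPS with IFNg they were -3.44 for Dusp2, -2.19 for Dusp4, -1.56 for Dusp5, -1.38 for Dusp8, -0.63 for Dusp7, -0.29 for Dusp1, 0.80 for Dusp6 and 3.18 for Dusp10. For IL-4 they were -0.84 for Dusp16, -0.56 for Dusp6, -0.48 for Dusp4, 0.51 for Dusp3, 0.74 for Dusp1, 2.08 for Dusp2 and 2.24 for Dusp5. For IFNg added to LPS they were -1.66 for Dusp6, -0.97 for Dusp2, 0.34 for Dusp16, 0.53 for Dusp4, 0.54 for Dusp1, 0.62 for Dusp7, 1.16 for Dusp5 and 2.18 for Dusp10. Some of the calls listed were not firm. Of 18 alternatives, 14 ended that of Dusp16 and 4 that of Dusp4 for added IFNg, and 5 that of Dusp1 for LPS with IFNg. The shares of all tested genes called in each contrast are given above. A response that turned from called lower to called higher, or the reverse, was seen for Dusp4 and Dusp7 with LPS (both higher at 1 h and lower at 18 h) and for Dusp2 and Dusp3 with IL-4 (both lower at 1 h and higher at 18 h).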

How the results depend on the processing

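Of the counts of called genes and members, the following moved with the processing. The 1 member called higher with IFNg added at 1 h (Dusp16) became 0 under median-of-ratios scaling, library-size scaling, no filter and DESeq2. Library-size scaling gave 4437 genes called for LPS at 1 h (2838 under TMM), 6337 for LPS with IFNg at 1 h (3749), 5 members lower for LPS at 18 h (3) and 1 member higher between the unstimulated times (0). No filter gave 1 member lower for LPS at 1 h (2). Leaving out 1 library gave 863 to 1547 genes called between the unstimulated times (863 and 985 without unstimulated 18 h replicates 1 and 2, 998 and 873 without unstimulated 1 h replicates 1 and 3), 1 to 2 members lower for LPS at 1 h 0 members higher for added IFNg at 1 h throughout, and 4 to 7 members higher in its interaction with time (6).

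Values that changed sign under library-size scaling were Dusp10 with LPS at 1 h (-0.13), Dusp6 with LPS at 18 h (-0.39, called lower), Dusp5 with LPS and IFNg at 18 h (-0.35), Dusp7 between the unstimulated times (0.008), Dusp16 in the interaction for LPS with IFNg (-0.13) and Dusp8 in that for added IFNg (-0.03, and -0.004 with no filter). That scaling also called values that TMM did not: Dusp10 (-0.78) with LPS and IFNg at 1 h and with added IFNg at 1 h (-0.65), Dusp5 with LPS at 18 h (-0.56), Dusp2 with LPS and IFNg at 18 h (-0.84), Dusp3 with added IFNg at 18 h (-0.21) and in the interaction for LPS with IFNg (-0.43), Dusp6 between the unstimulated times (0.28) and Dusp16 in the LPS interaction (-0.42). Library-size scaling moves the median of all genes to -0.54 for LPS with IFNg at 18 h. None of the values whose sign changed when 1 library was left out had been called. Their ranges over the libraries left out were -0.086 to 0.13 for Dusp8 in the added IFNg interaction, -0.013 to 0.203 for Dusp8 with added IFNg at 1 h, -0.1 to 0.003 for Dusp1 with added IFNg at 18 h, -0.032 to 0.105 for Dusp10 with LPS at 1 h, -0.261 to 0.059 for Dusp5 and -0.011 to 0.104 for Dusp6 with LPS at 18 h. With IL-4 they were -0.007 to 0.103 for Dusp6, -0.086 to 0.001 for Dusp7 and -0.379 to 0.077 for Dusp8 at 1 h, and -0.289 to 0.04 for Dusp5 and -0.283 to 0.068 for Dusp10 at 18 h. The cause was not tested.

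With the replicate block 958 genes were called for IL-4 at 1 h (829 without) and 3046 for LPS at 1 h (2838), and the block changed no call of a member in the 13 contrasts. Depth limits the scarce members: Dusp8 had 7 to 9 reads a library with IL-4 at 18 h, and changes of that size cannot be placed closely.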

Other observations

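Dual-specificity phosphatases outside the 10, 16 genes with 11 tested, were counted as a list. LPS at 1 h raised 1 and lowered 1, where 10.8% of all tested genes were called higher and 11.5% lower. IL-4 at 1 h raised 0 and lowered 1, where 3.22% of all were higher and 3.27% lower. LPS with IFNg at 18 h raised 3 and lowered 5, where 36.1% of all were higher and 36.1% lower. The counts for LPS at 1 h and for LPS with IFNg at 18 h are thus near the background. Dusp28, a small atypical member, was 3.36 ± 0.53 CPM without stimulus at 18 h, 19.3 ± 5.36 with LPS and 30.1 ± 3.37 with LPS and IFNg (log2 3.16 ± 0.20 for the last, adjusted p = 1.5e-14). Dusp9, an ERK phosphatase of the same class as Dusp6 and Dusp7, fell with LPS from 5.79 ± 0.25 to 1.01 ± 0.16 CPM at 18 h (-2.48 ± 0.28, adjusted p = 9.4e-09) and from 7.81 ± 1.64 to 5.07 ± 1.02 CPM at 1 h (-0.64 ± 0.20, adjusted p = 0.018). Dusp23 was higher at 18 h with LPS (0.78 ± 0.15) and with IL-4 (0.74 ± 0.15).

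At 18 h Map2k4, a kinase that activates JNK, and the JNK genes Mapk8 and Mapk9 were higher with LPS and IFNg than with LPS alone. Map2k4 went from 69.9 ± 5.94 to 114 ± 3.71 CPM (log2 0.70, adjusted p = 4.2e-09), Mapk9 from 62.6 ± 4.89 to 137 ± 5.16 CPM (1.13, adjusted p = 3.2e-12) and Mapk8 from 11.5 ± 2.11 to 16.2 ± 1.98 CPM (0.51, adjusted p = 0.0036). Mapk14, the p38 alpha gene, was lower (-0.66, adjusted p = 2.1e-10).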
